A study of Mus musculus with 15 samples.

Results

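A set of 31 genes of glucose breakdown and of the response to low oxygen was read in the colon of 15 mice, out of 55335 genes with a value. They were taken by name: the 2 glucose transporters Slc2a1 and Slc2a3, 17 enzymes from hexokinase to pyruvate kinase, 5 genes that steer pyruvate and lactate or fructose 2,6-bisphosphate, and 7 genes of the hypoxia factor and its targets. All 31 had a value in every mouse, and 30 passed the filter on low values and were tested. Slc2a3 reached 1 FPKM in 4 mice and is given by its values.

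RNA of whole colon tissue was sequenced from mice in 3 groups of 5. DSS_ICB_Fp mice had dextran sulfate sodium (DSS, a polymer that injures the colon lining), immune checkpoint blockade (ICB, antibodies that release a brake on T cells) and Faecalibacterium prausnitzii, a butyrate-producing gut bacterium, by gavage. DSS_ICB mice had dextran sulfate sodium and checkpoint blockade. DSS mice had dextran sulfate sodium with no other agent named. Every mouse therefore had the injury, and no uninjured colon was analysed here. The labels do not name the antibodies, a control antibody, a control gavage, strain, age, sex or cages.

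Glycolysis splits glucose into pyruvate in the cytosol, and lactate dehydrogenase turns pyruvate into lactate where it is not burned in mitochondria. When oxygen is scarce, the factor HIF-1 escapes degradation and switches on glucose transporters, most glycolytic enzymes, Pdk1, Vegfa, Bnip3, Egln3 and Car9. The colon lining is a tissue of naturally low oxygen at its surface, its colonocytes burn butyrate, and neutrophils that enter an injured mucosa depend on glycolysis.

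The libraries held 341054 to 443338 summed FPKM, and their depth was estimated, only approximately, at 15.2 to 24.7 M fragments, where M is the metric prefix mega. A pair of libraries stood apart, both of DSS_ICB mice. The median rank correlation of a library with the others was 0.725 for DSS_ICB 3 and 0.864 for DSS_ICB 5, and lay between 0.922 and 0.950 for the rest. Mitochondrial transcripts took 33.2% of summed FPKM in DSS_ICB 3, and from 9.39% (DSS_ICB 2) to 25.8% (DSS 2) in the other mice. The sum of 9 absorptive colonocyte markers was 280 FPKM in DSS_ICB 3, against 1827 to 2246 FPKM in the other DSS_ICB mice. Slc26a3, a chloride exchanger of surface colonocytes, was at 0.296 FPKM in DSS_ICB 3, 4.84 FPKM in DSS_ICB 5 and 22.6 to 184 FPKM in the other mice. The 9 markers did not move together in DSS_ICB 5. There Slc26a2 was also low, at 14.4 FPKM, but Krt20 was at 375 FPKM, Vil1 at 158 FPKM and the sum at 1987 FPKM. The sum of 8 smooth muscle markers was 17208 FPKM in DSS_ICB 3, against 1302 to 4241 FPKM in the other DSS_ICB mice. Results that rest on these mice are also given without them. In bulk tissue, fewer cells of a type and less RNA per cell cannot be told apart.

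No member passed the test in any comparison, limma on log2(FPKM + 1) with Benjamini-Hochberg adjustment over 14385 genes at 0.05. In DSS_ICB_Fp mice against DSS_ICB mice, 0 of 30 passed, where 0.132% of all tested genes did (0.00695% higher and 0.125% lower). In DSS_ICB mice against DSS mice, 0 of 30 passed, beside 0.0209% of all genes. In DSS_ICB_Fp mice against DSS mice, 0 of 30 passed, and 0% of all genes. The standard errors of the members' log2 changes ran from 0.13 to 0.48, with a median of 0.23, which is the uncertainty of a change with 5 mice a group. At an unadjusted p under 0.05, 10 of 30 members differed between DSS_ICB_Fp and DSS_ICB mice, beside 21.8% of all genes. Of these 10, 6 were higher in DSS_ICB_Fp mice (Gpi1, Aldoa, Aldoc, Eno3, Pdk1 and Ankrd37), beside 9.34% of all genes, and 4 were lower (Hk3, Pfkfb3, Hif1a and Adm), beside 12.4%. The corresponding counts were 2 of 30 between DSS_ICB and DSS mice, beside 11.3%, and 0 of 30 between DSS_ICB_Fp and DSS mice, beside 1.41% (0.591% higher and 0.82% lower). Groups did not overlap for 3 of 30 members in the first of these comparisons (3.41% of all genes), 1 of 30 in the second (1.54%) and 0 of 30 in the third (0.389%). The first comparison and the second share the DSS_ICB mice, the second and the third share the DSS mice, and the first and the third share the DSS_ICB_Fp mice.

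**Figure D1:**
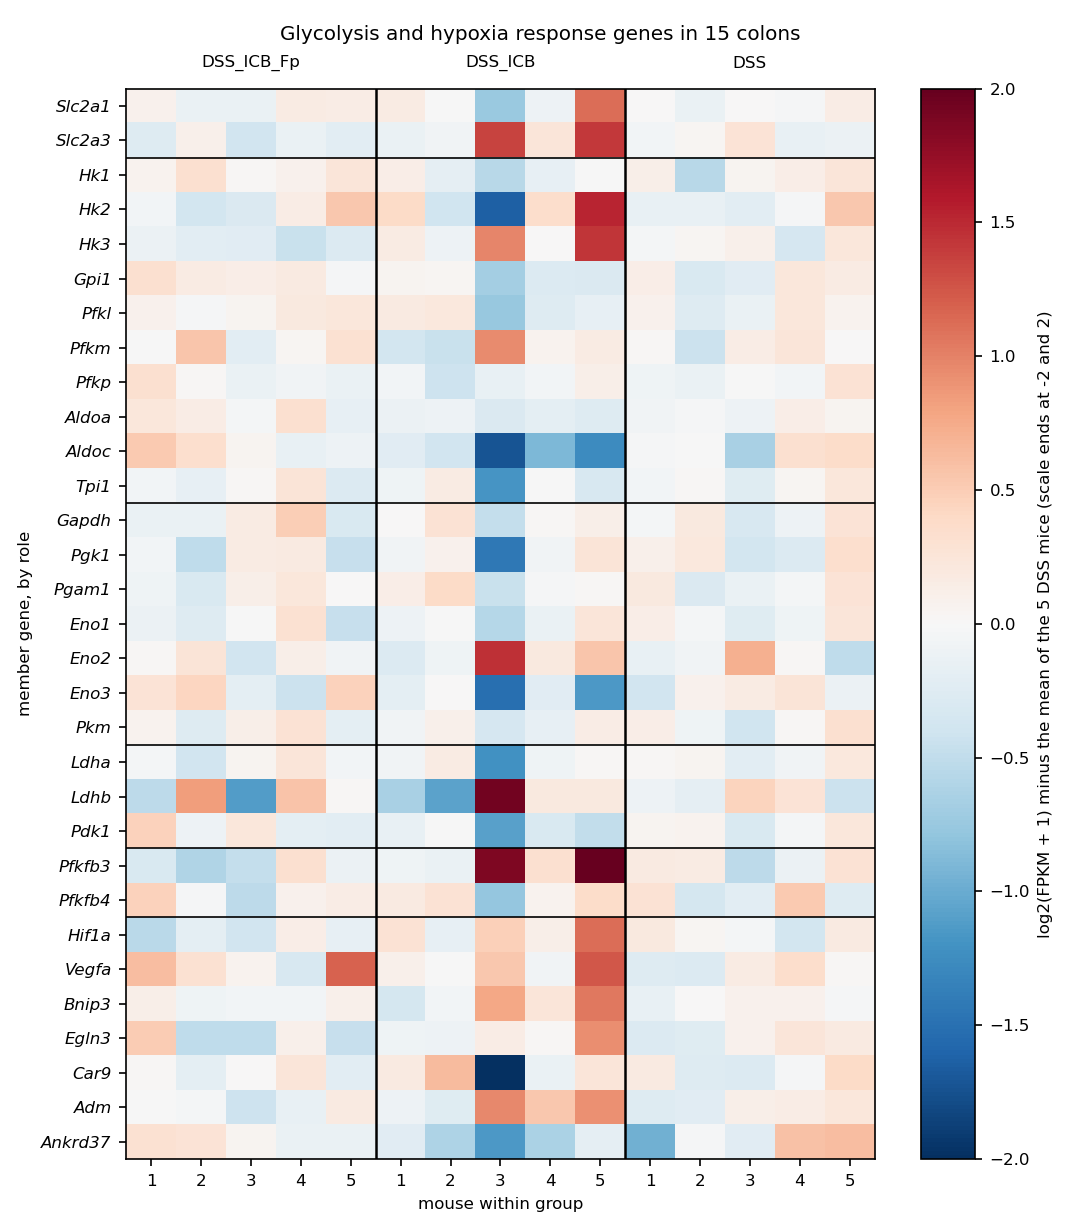
Each row is a member gene, ordered by role, and each column a mouse; colour gives log2(FPKM + 1) minus the mean of the 5 DSS mice. The columns DSS_ICB 3 and DSS_ICB 5 carry the strongest colours, and the DSS_ICB_Fp and DSS columns are pale.

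The promoters of 3 members are shown, those with the smallest p in DSS_ICB_Fp against DSS_ICB mice, because HIF-1 binds the core letters ACGTG and GCGTG of the hypoxia response element. The windows are the 250 bases before the RefSeq start on GRCm38.p6, read 5′ to 3′ on the gene's strand, and capitals mark either motif on either strand. Aldoc, the brain-type aldolase, lies at chr11:78322823-78323072 (plus strand), Hk3, the hexokinase of myeloid cells, at chr13:55021386-55021635 (minus strand), and Hif1a, the oxygen-regulated subunit of HIF-1, at chr12:73907617-73907866 (plus strand).
Aldoc: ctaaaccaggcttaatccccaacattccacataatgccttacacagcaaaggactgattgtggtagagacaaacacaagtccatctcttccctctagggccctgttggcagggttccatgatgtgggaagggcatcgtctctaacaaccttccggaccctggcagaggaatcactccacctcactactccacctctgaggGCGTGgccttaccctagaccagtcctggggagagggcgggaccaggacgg
Hk3: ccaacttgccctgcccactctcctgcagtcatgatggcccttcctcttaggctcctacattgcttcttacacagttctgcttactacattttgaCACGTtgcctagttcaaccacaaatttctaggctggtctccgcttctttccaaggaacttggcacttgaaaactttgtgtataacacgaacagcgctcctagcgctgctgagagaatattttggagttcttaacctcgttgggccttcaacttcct
Hif1a: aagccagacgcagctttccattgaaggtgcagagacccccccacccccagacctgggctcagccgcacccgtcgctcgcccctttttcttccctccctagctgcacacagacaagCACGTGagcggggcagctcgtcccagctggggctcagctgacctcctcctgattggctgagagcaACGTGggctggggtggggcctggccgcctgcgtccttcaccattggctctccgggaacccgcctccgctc

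In the Aldoc window the motif GCGTG began at -50 from the start, on the gene's strand. In the Hk3 window ACGTG was on the other strand at -156. In the Hif1a window an ACGTG pair overlapped on both strands around -135, and another stood at -70. Over windows that also hold the 50 bases after the start, 30 of 31 members had an entry. Of these, 15 held ACGTG (50.0%), 15 held GCGTG (50.0%) and 23 held at least one of them (76.7%). Of the windows of all tested genes with an entry, 25.1% held ACGTG, 49.4% held GCGTG and 61.0% held at least one. A match describes letters and is not a bound site.

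Slc2a1 encodes GLUT1, the basal glucose transporter. Slc2a1 was at 31.8, 27.2, 27.0, 33.5 and 33.0 FPKM in DSS_ICB_Fp mice, 33.7, 29.8, 17.5, 27.8 and 65.8 FPKM in DSS_ICB mice and 29.9, 27.2, 29.9, 29.3 and 33.3 FPKM in DSS mice. Apart from DSS_ICB 3, the lowest mouse, and DSS_ICB 5, the highest, all mice lay in one narrow band. Slc2a3, the high-affinity transporter GLUT3 of neurons and leukocytes, was at 0.469, 0.892, 0.358, 0.614 and 0.526 FPKM in DSS_ICB_Fp mice, 0.608, 0.675, 3.49, 1.09 and 3.68 FPKM in DSS_ICB mice and 0.689, 0.813, 1.13, 0.597 and 0.632 FPKM in DSS mice. Its 2 high values belong to DSS_ICB 3 and DSS_ICB 5, and without them the DSS_ICB mean was 0.791 ± 0.261 FPKM (SD, n = 3), beside 0.772 ± 0.216 FPKM in DSS mice (SD, n = 5). Slc2a4, the insulin-responsive transporter GLUT4 of muscle and fat and not one of the 31 genes, was at 35.6 FPKM in DSS_ICB 3, above Slc2a1 in that mouse, and at 3.85 to 10.3 FPKM in the other mice.

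The hexokinases trap glucose as glucose 6-phosphate. Hk1, the housekeeping form, and Hk2, the inducible and HIF-responsive form, made up most of the mRNA of the 3 forms. Hk2 was at 25.3, 20.1, 21.3, 29.1 and 38.6 FPKM in DSS_ICB_Fp mice, 34.5, 19.7, 7.77, 33.6 and 77.6 FPKM in DSS_ICB mice and 23.6, 23.5, 22.4, 25.8 and 38.4 FPKM in DSS mice. The lowest and the highest of the 15 mice were again DSS_ICB 3 and DSS_ICB 5, and the groups overlapped. Hk1 averaged 23.8 ± 2.12 FPKM in DSS_ICB_Fp mice, 19.3 ± 3.42 FPKM in DSS_ICB mice and 21.7 ± 4.34 FPKM in DSS mice (SD, n = 5 each). Its log2 change in DSS_ICB_Fp against DSS_ICB mice was 0.31 ± 0.16, with an adjusted p of 0.275 in limma, and 0.22 without DSS_ICB 3 and 5.

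Hk3 (ENSMUSG00000025877, chromosome 13, 55005985 to 55021385) was at 0.778, 0.672, 0.647, 0.428 and 0.608 FPKM in DSS_ICB_Fp mice, 1.17, 0.812, 2.80, 0.952 and 4.24 FPKM in DSS_ICB mice and 0.893, 0.990, 1.07, 0.540 and 1.26 FPKM in DSS mice. Every DSS_ICB_Fp mouse was below every DSS_ICB mouse, and 2.46% of all tested genes were likewise lower with no overlap. The log2 change of DSS_ICB_Fp against DSS_ICB mice was -0.75 ± 0.25 (SE), with an adjusted p of 0.122 in limma, and the change of DSS_ICB against DSS mice was 0.50 ± 0.25, with an adjusted p of 0.454 in limma. Without DSS_ICB 3 and 5 these log2 changes were -0.28 and 0.03. In DSS_ICB_Fp against DSS mice the log2 change was -0.25 ± 0.25, with an adjusted p of 1.0 in limma. As a share of the summed FPKM of Hk1, Hk2 and Hk3, Hk3 took 0.818% to 1.60% in DSS_ICB_Fp mice, 1.78% to 11.3% in DSS_ICB mice and 1.09% to 2.55% in DSS mice.

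Upper glycolysis continues with Gpi1, which turns glucose 6-phosphate into fructose 6-phosphate, and the phosphofructokinases Pfkl, Pfkm and Pfkp, the committing step. Gpi1 averaged 70.9 ± 6.10 FPKM in DSS_ICB_Fp mice, 54.8 ± 10.9 FPKM in DSS_ICB mice and 64.1 ± 10.7 FPKM in DSS mice (SD, n = 5 each). Its log2 change in DSS_ICB_Fp against DSS_ICB mice was 0.38 ± 0.16, with an adjusted p of 0.183 in limma, and 0.22 without DSS_ICB 3 and 5. In DSS_ICB against DSS mice it was -0.23 ± 0.16, with an adjusted p of 0.549 in limma, and -0.06 without them. Pfkl, the liver form, was the most abundant phosphofructokinase in each group's mean, at 22.4 ± 1.66 FPKM in DSS_ICB_Fp mice, 18.9 ± 5.03 FPKM in DSS_ICB mice and 20.8 ± 2.87 FPKM in DSS mice. Its log2 change in DSS_ICB_Fp against DSS_ICB mice was 0.27 ± 0.17, with an adjusted p of 0.359 in limma, and 0.07 without DSS_ICB 3 and 5. Pfkp, the platelet form, averaged 14.1 ± 2.13, 13 ± 1.84 and 14.1 ± 1.87 FPKM in the same order of groups. Pfkm, the muscle form, was between 3.22 and 7.44 FPKM in 14 mice and at 10.1 FPKM in DSS_ICB 3.

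Aldolase cleaves fructose 1,6-bisphosphate. Aldoc (ENSMUSG00000017390, chromosome 11, 78322968 to 78327781) was at 9.0, 7.81, 6.22, 5.26 and 5.49 FPKM in DSS_ICB_Fp mice, 4.94, 4.34, 1.09, 2.74 and 1.90 FPKM in DSS_ICB mice and 5.84, 5.91, 3.42, 7.68 and 7.95 FPKM in DSS mice. All DSS_ICB_Fp mice were above all DSS_ICB mice, as 0.945% of all tested genes were, and 1 of 5 DSS mice fell inside the DSS_ICB range. The log2 change in DSS_ICB_Fp against DSS_ICB mice was 1.03 ± 0.27, with an unadjusted p of 0.00176 and an adjusted p of 0.0860 in limma, the smallest of any member. The log2 change in DSS_ICB against DSS mice was -0.90 ± 0.27, with an adjusted p of 0.418 in limma. Without DSS_ICB 3 and 5 the log2 changes were 0.63 and -0.50, with adjusted p of 0.204 and 0.625 in limma. Aldoc passed the test in DSS_ICB_Fp against DSS_ICB mice without DSS_ICB 1, with a log2 change of 1.2 and an adjusted p of 0.0359 in limma. Aldoc also passed with libraries weighted by their quality, with a log2 change of 0.87 and an adjusted p of 0.0405 in limma. It was the only member of 30 to pass in these settings, beside 598 and 964 of all 14385 tested genes. In the main fit 19 of all genes passed, so the rise in calls was not particular to Aldoc.

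Aldoa, the main aldolase here, was at 289, 274, 242, 309 and 221 FPKM in DSS_ICB_Fp mice, 229, 231, 203, 216 and 207 FPKM in DSS_ICB mice and 236, 244, 231, 273 and 256 FPKM in DSS mice. Every DSS_ICB mouse was below every DSS mouse, by a narrow margin, and 0.327% of all tested genes were lower without overlap in that comparison. The log2 change in DSS_ICB against DSS mice was -0.19 ± 0.13, with an adjusted p of 0.535 in limma. In DSS_ICB_Fp against DSS_ICB mice the log2 change was 0.29 ± 0.13, with an adjusted p of 0.206 in limma, and it was 0.23 without DSS_ICB 3 and 5. Aldoa is a member whose values in DSS_ICB 3 and 5 lay near those of the other DSS_ICB mice.

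**Figure D2:**
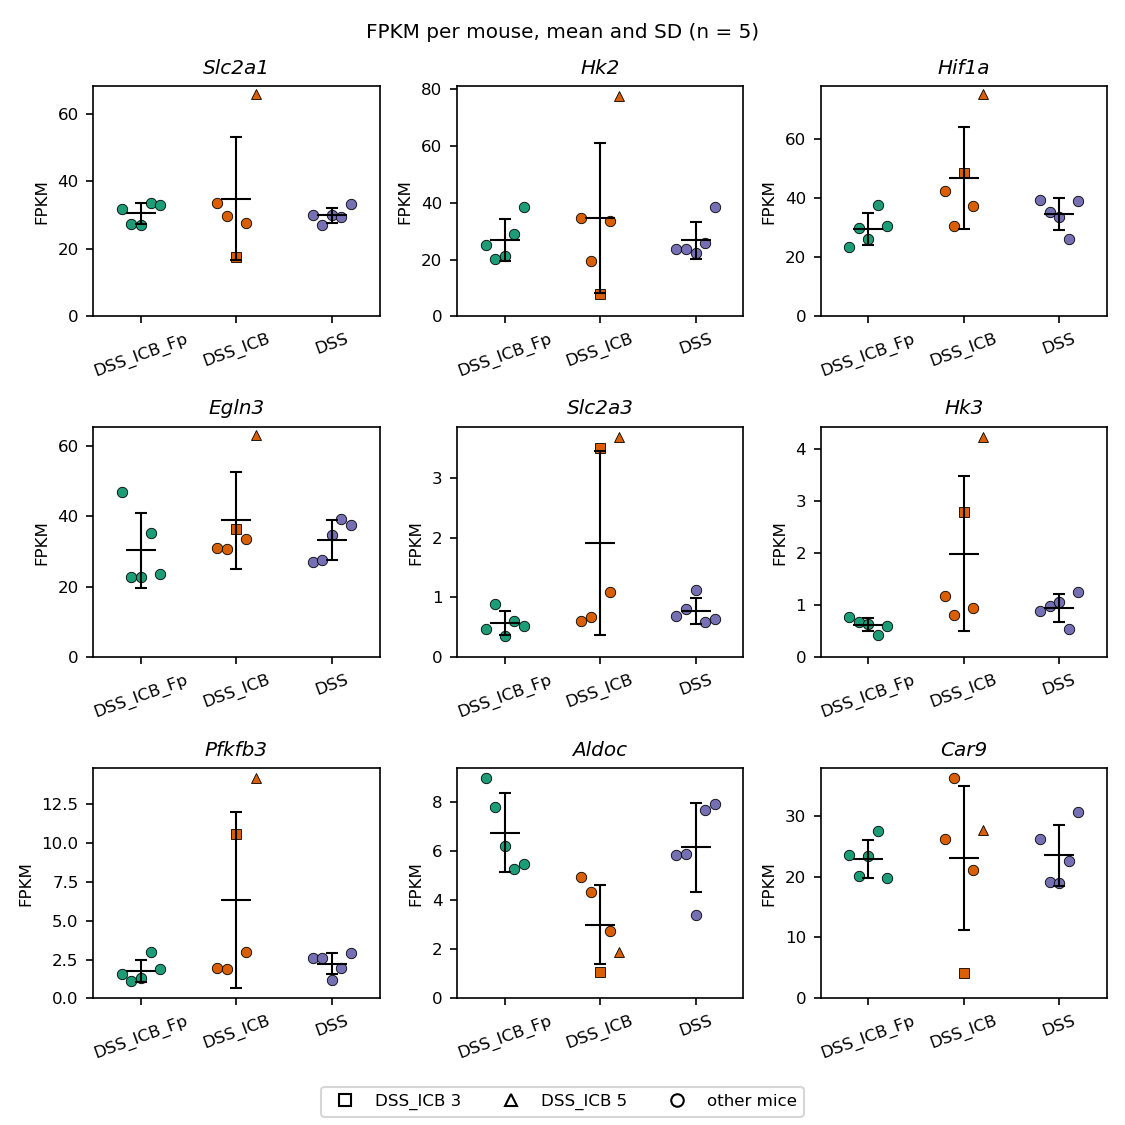
FPKM per mouse for 9 members, DSS_ICB_Fp, DSS_ICB and DSS from left to right, with mean and SD (n = 5 each); squares are DSS_ICB 3 and triangles DSS_ICB 5. The triangle is the highest point for Slc2a1, Hk2, Hif1a, Egln3, Slc2a3, Hk3 and Pfkfb3, and the square is the lowest for Slc2a1, Hk2, Aldoc and Car9.

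Lower glycolysis yields ATP and pyruvate. All 17 enzymes of upper and lower glycolysis, from hexokinase to pyruvate kinase, together made 1421, 1281, 1437, 1654 and 1221 FPKM in DSS_ICB_Fp mice, 1338, 1460, 883, 1286 and 1409 FPKM in DSS_ICB mice and 1398, 1383, 1177, 1383 and 1611 FPKM in DSS mice. The sum for DSS_ICB 3 stood below all the others, and the remaining 14 mice overlapped across groups. Gapdh, often used as a reference gene, averaged 215 ± 50.3 FPKM in DSS_ICB_Fp mice, 210 ± 38.2 FPKM in DSS_ICB mice and 210 ± 34.4 FPKM in DSS mice (SD, n = 5 each). Pkm, pyruvate kinase, averaged 191 ± 30.4, 182 ± 24.1 and 191 ± 34.1 FPKM in the same order. Pgam1, phosphoglycerate mutase, averaged 79.2 ± 11.2, 81.1 ± 16.4 and 79.8 ± 13.1 FPKM, and Eno1 85.9 ± 17.5, 85.4 ± 17 and 91.7 ± 12 FPKM. For these 4 enzymes and for Pgk1, the fitted change was smaller than its standard error in all 3 comparisons. Several of these enzymes have close processed copies in the mouse genome, and how reads shared with a copy were assigned is not given in the sources used here.

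Pgk1, phosphoglycerate kinase, was at 191, 139.5, 221, 223 and 143 FPKM in DSS_ICB_Fp mice, 188, 210.0, 72.8, 189.7 and 238 FPKM in DSS_ICB mice and 213, 229, 153, 164 and 251 FPKM in DSS mice. DSS_ICB 3 had less than any other mouse, and without DSS_ICB 3 and 5 the DSS_ICB mean was 196 ± 12.2 FPKM (SD, n = 3). Tpi1, triose phosphate isomerase, followed the same pattern with 63.4 FPKM in DSS_ICB 3 and 115 to 174 FPKM in the other 14 mice. Its log2 changes, 0.25 ± 0.21 in DSS_ICB_Fp against DSS_ICB mice (adjusted p = 0.517 in limma) and -0.29 ± 0.21 in DSS_ICB against DSS mice (adjusted p = 0.573 in limma), turned to -0.06 and 0.02 without DSS_ICB 3 and 5.

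Eno1 is the widespread enolase, Eno2 the neuronal form and Eno3 the muscle form. Eno3 was at 72.3, 80.6, 52.4, 44.0 and 82.8 FPKM in DSS_ICB_Fp mice, 52.2, 60.3, 20.5, 51.2 and 26.5 FPKM in DSS_ICB mice and 45.6, 63.4, 67.1, 72.0 and 54.9 FPKM in DSS mice. It made 19.3% to 55.1% of the summed FPKM of the 3 enolases across all mice, and DSS_ICB 3 and 5 were the 2 lowest mice in level. The log2 change was 0.72 ± 0.28 in DSS_ICB_Fp against DSS_ICB mice, with an adjusted p of 0.168 in limma, and -0.61 ± 0.28 in DSS_ICB against DSS mice, with an adjusted p of 0.438 in limma. Without DSS_ICB 3 and 5 these log2 changes were 0.24 and -0.13. Eno2 was at 6.25 FPKM in DSS_ICB 3 and at 0.849 to 3.30 FPKM in the other mice. Its log2 changes, -0.38 ± 0.29 in DSS_ICB_Fp against DSS_ICB mice (adjusted p = 0.460 in limma) and 0.37 ± 0.29 in DSS_ICB against DSS mice (adjusted p = 0.594 in limma), turned to 0.05 and -0.06 without DSS_ICB 3 and 5.

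The fate of pyruvate is set by Ldha, which favours lactate, Ldhb, the form of oxidative tissue, and Pdk1, a kinase that shuts the entry into mitochondria. Ldha averaged 239 ± 36.3 FPKM in DSS_ICB_Fp mice, 217 ± 65.2 FPKM in DSS_ICB mice and 244 ± 26.9 FPKM in DSS mice (SD, n = 5 each). Without DSS_ICB 3, at 105.0 FPKM, and DSS_ICB 5, the DSS_ICB mean was 244 ± 25.2 FPKM (SD, n = 3). The log2 change of DSS_ICB against DSS mice was -0.23 ± 0.23 (adjusted p = 0.668 in limma) and 0.00 without them. Pdk1 was at 15.2, 9.96, 12.7, 9.24 and 9.17 FPKM in DSS_ICB_Fp mice, 9.62, 10.8, 4.56, 8.50 and 7.35 FPKM in DSS_ICB mice and 11.2, 11.3, 8.51, 10.4 and 12.8 FPKM in DSS mice. The groups overlapped, with log2 changes of 0.44 ± 0.19 in DSS_ICB_Fp against DSS_ICB mice (adjusted p = 0.207 in limma) and -0.41 ± 0.19 in DSS_ICB against DSS mice (adjusted p = 0.450 in limma). They were 0.19 and -0.15 without DSS_ICB 3 and 5.

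Ldhb was at 5.10, 14.6, 3.03, 12 and 7.87 FPKM in DSS_ICB_Fp mice, 4.59, 3.18, 32.3, 9.0 and 8.99 FPKM in DSS_ICB mice and 7.13, 6.77, 11, 9.54 and 5.50 FPKM in DSS mice. It varied several-fold within DSS_ICB_Fp and DSS_ICB mice, and the groups overlapped. Ldhb took 1.19% to 7.26% of the summed FPKM of Ldha and Ldhb in DSS_ICB_Fp mice, 1.15% to 23.5% in DSS_ICB mice and 1.92% to 4.98% in DSS mice. Ldha was thus the main lactate dehydrogenase mRNA in every mouse, also in DSS_ICB 3, which had the top Ldhb share.

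**Figure D3:**
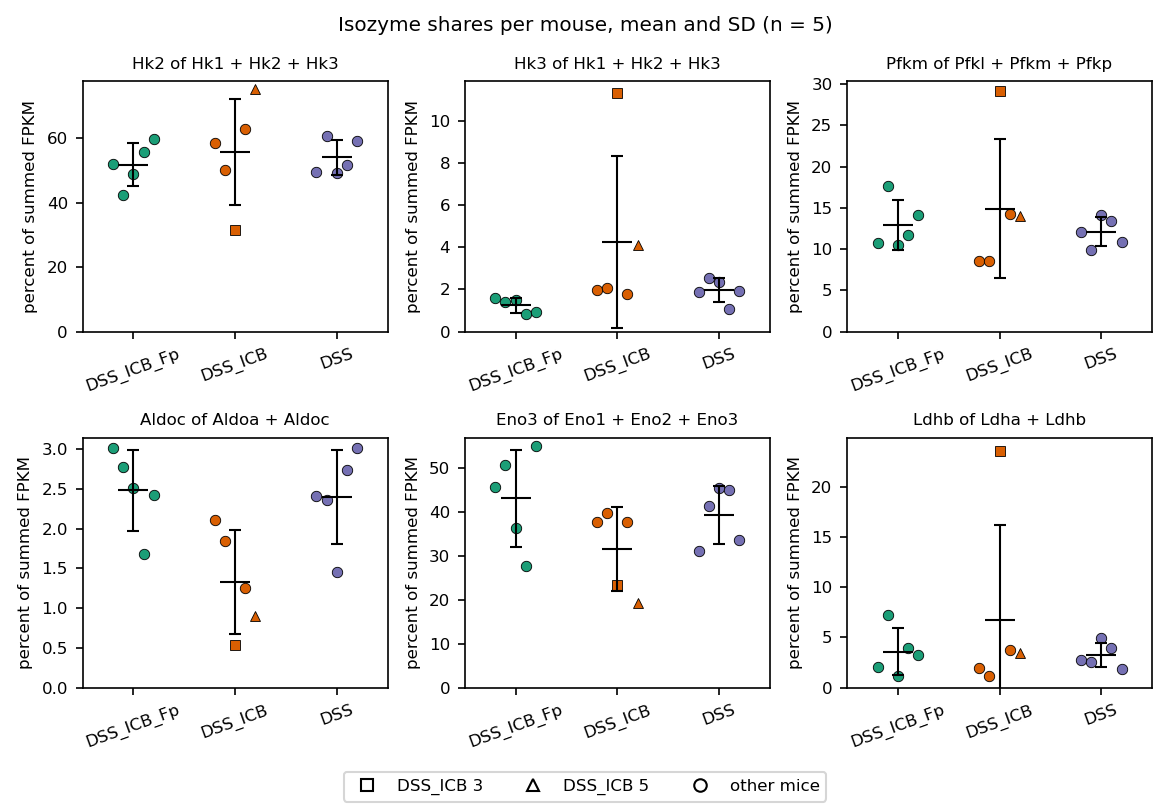
Share of one isozyme in the summed FPKM of its family, per mouse, in percent, with mean and SD (n = 5 each; error bars are cut at 0); squares are DSS_ICB 3 and triangles DSS_ICB 5. DSS_ICB 3 is the high point for Hk3 (11.3%), Pfkm (29.2%) and Ldhb (23.5%), and DSS_ICB 5 for Hk2 (75.3%).

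Pfkfb3 and Pfkfb4 make fructose 2,6-bisphosphate, the activator of phosphofructokinase. Pfkfb3 (ENSMUSG00000026773, chromosome 2, 11471433 to 11554077) was at 1.57, 1.09, 1.29, 2.96 and 1.92 FPKM in DSS_ICB_Fp mice, 1.98, 1.91, 10.6, 2.96 and 14.2 FPKM in DSS_ICB mice and 2.60, 2.57, 1.21, 1.93 and 2.90 FPKM in DSS mice. The other 13 mice lay between 1.09 and 2.96 FPKM, and DSS_ICB 3 and 5 were the high pair. The log2 change was -1.08 ± 0.41 in DSS_ICB_Fp against DSS_ICB mice, with an adjusted p of 0.158 in limma, and 0.84 ± 0.41 in DSS_ICB against DSS mice, with an adjusted p of 0.452 in limma. Without DSS_ICB 3 and 5 these log2 changes were -0.27 and 0.03. Pfkfb4 averaged 3.07 ± 0.954 FPKM in DSS_ICB_Fp mice, 3.11 ± 1.09 FPKM in DSS_ICB mice and 3.01 ± 1.11 FPKM in DSS mice (SD, n = 5 each).

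Hif1a (ENSMUSG00000021109, chromosome 12, 73901375 to 73947530) was at 23.3, 29.8, 26.2, 37.8 and 30.6 FPKM in DSS_ICB_Fp mice, 42.3, 30.6, 48.4, 37.3 and 75.4 FPKM in DSS_ICB mice and 39.3, 35.2, 33.5, 26.3 and 39.1 FPKM in DSS mice. The mouse DSS_ICB 5 was the highest, DSS_ICB 3 the next, and DSS_ICB_Fp and DSS_ICB mice overlapped at one end of their ranges. The log2 change was -0.60 ± 0.21 in DSS_ICB_Fp against DSS_ICB mice, with an adjusted p of 0.137 in limma, and 0.37 ± 0.21 in DSS_ICB against DSS mice, with an adjusted p of 0.482 in limma. In DSS_ICB_Fp against DSS mice it was -0.23 ± 0.21, with an adjusted p of 1.0 in limma. Without DSS_ICB 3 and 5, the first pair of log2 changes were -0.31 and 0.08. HIF-1 activity is set mainly by the stability of the protein, which RNA levels do not measure.

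Of the targets of HIF-1, Bnip3 promotes the removal of mitochondria, Egln3 is a prolyl hydroxylase that marks the factor for degradation, and Adm encodes the vasodilator adrenomedullin. Bnip3 was at 13.6, 11.7, 11.9, 12 and 13.5 FPKM in DSS_ICB_Fp mice, 9.5, 12, 21.9, 14.9 and 27.0 FPKM in DSS_ICB mice and 11.2, 12.5, 13.3, 13.3 and 12.2 FPKM in DSS mice. Its spread was small in DSS_ICB_Fp and DSS mice. The 3 highest mice were DSS_ICB mice, and so was the lowest, DSS_ICB 1. Its log2 change was -0.33 ± 0.21 in DSS_ICB_Fp against DSS_ICB mice (adjusted p = 0.370 in limma) and 0.33 ± 0.21 in DSS_ICB against DSS mice (adjusted p = 0.516 in limma). Both turned direction, to 0.06 and -0.06, without DSS_ICB 3 and 5. Adm averaged 3.5 ± 0.664 FPKM in DSS_ICB_Fp mice, 5.69 ± 2.44 FPKM in DSS_ICB mice and 3.77 ± 0.737 FPKM in DSS mice (SD, n = 5 each). Its log2 change was -0.50 ± 0.22 in DSS_ICB_Fp against DSS_ICB mice, with an adjusted p of 0.211 in limma, and -0.15 without DSS_ICB 3 and 5. In DSS_ICB against DSS mice it was 0.42 ± 0.22, with an adjusted p of 0.465 in limma, and 0.07 without them. Egln3 was at 63.2 FPKM in DSS_ICB 5 and at 22.7 to 47.0 FPKM in the other 14 mice, with a log2 change of -0.36 ± 0.23 in DSS_ICB_Fp against DSS_ICB mice (adjusted p = 0.383 in limma) that was -0.12 without DSS_ICB 3 and 5.

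Vegfa, the main growth factor of blood vessels, averaged 10.4 ± 4.70 FPKM in DSS_ICB_Fp mice, 10.3 ± 4.86 FPKM in DSS_ICB mice and 7.37 ± 1.57 FPKM in DSS mice (SD, n = 5 each). Its log2 change in DSS_ICB_Fp against DSS mice was 0.37 ± 0.28, with an adjusted p of 1.0 in limma, and in DSS_ICB against DSS mice 0.36 ± 0.28, with an adjusted p of 0.595 in limma. The change of DSS_ICB against DSS mice was 0.01 without DSS_ICB 3 and 5. Its 2 highest mice were DSS_ICB 5, at 18.5 FPKM, and DSS_ICB_Fp 5, at 17.8 FPKM. Car9, the carbonic anhydrase at the surface of gut epithelium and a classical hypoxia marker, was at 23.5, 20.1, 23.4, 27.5 and 19.8 FPKM in DSS_ICB_Fp mice, 26.2, 36.3, 4.15, 21.1 and 27.6 FPKM in DSS_ICB mice and 26.2, 19.1, 19.0, 22.6 and 30.6 FPKM in DSS mice. DSS_ICB 3 was the one low mouse for this epithelial gene, and DSS_ICB 5 lay inside the range of the others.

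Ankrd37, an ankyrin repeat gene induced by HIF-1, was at 7.44, 7.17, 6.09, 5.22 and 5.20 FPKM in DSS_ICB_Fp mice, 4.80, 3.43, 2.08, 3.36 and 5.00 FPKM in DSS_ICB mice and 2.51, 5.71, 4.84, 9.15 and 9.39 FPKM in DSS mice. Every DSS_ICB_Fp mouse was above every DSS_ICB mouse, as for 0.945% of all tested genes, while DSS mice spanned both. The log2 change was 0.64 ± 0.27 in DSS_ICB_Fp against DSS_ICB mice, with an adjusted p of 0.186 in limma, and 0.57 without DSS_ICB 3 and 5. In DSS_ICB against DSS mice it was -0.56 ± 0.27, with an adjusted p of 0.446 in limma, and -0.50 without them. In DSS_ICB_Fp against DSS_ICB mice, 4 of the 7 hypoxia genes had a negative log2 change (Hif1a, Adm, Egln3 and Bnip3) and 3 a positive one (Ankrd37, Car9 and Vegfa), none past the test. Leaving out DSS_ICB 3 and 5 turned the sign of Bnip3 and of Car9, and leaving out DSS_ICB 3 alone turned that of Car9.

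**Figure D4:**
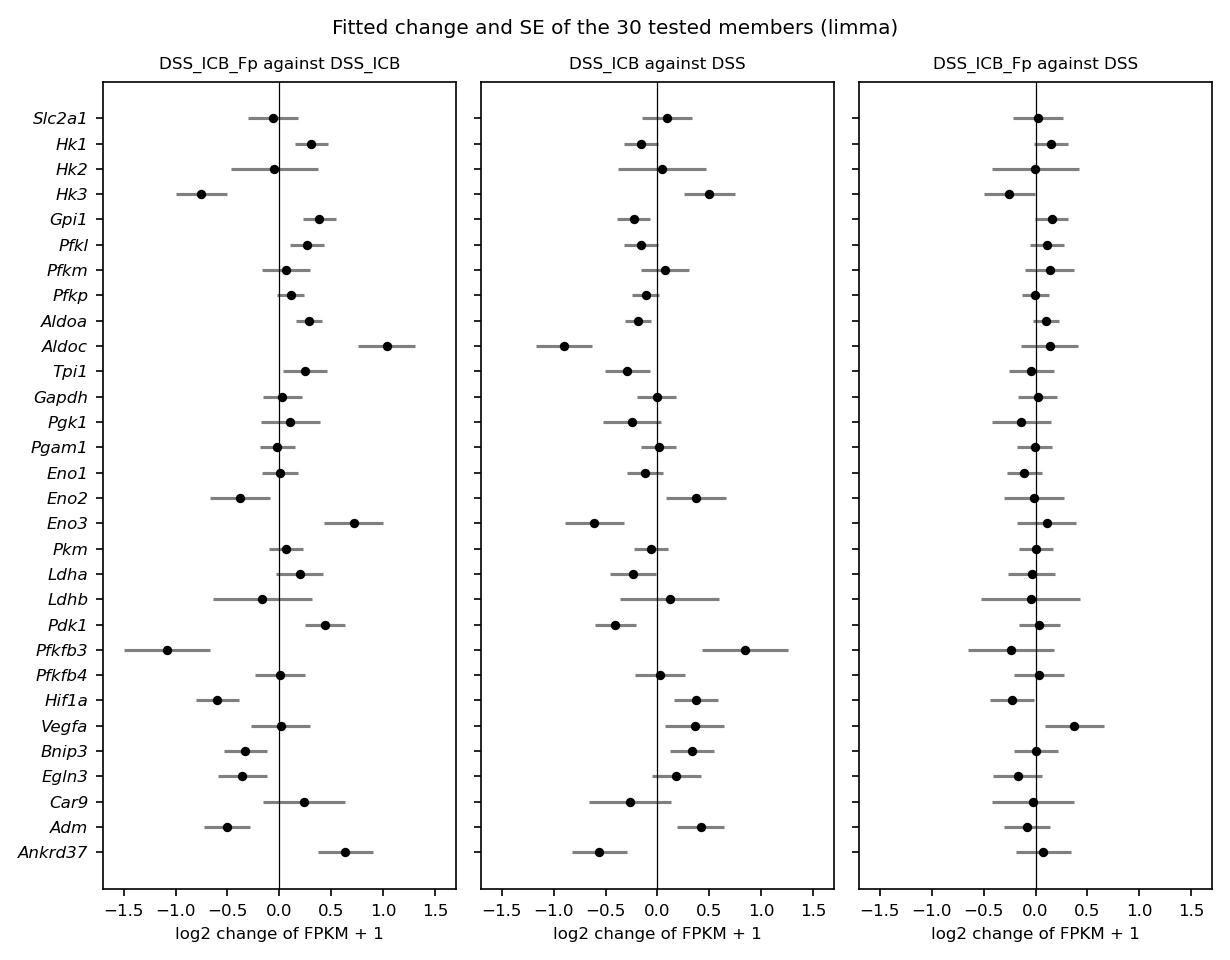
Fitted log2 change of FPKM + 1 with its standard error (limma) for the 30 tested members in 3 comparisons, DSS_ICB_Fp against DSS_ICB, DSS_ICB against DSS and DSS_ICB_Fp against DSS. In the third panel 27 of 30 changes are smaller than their standard error; in the first, Aldoc is farthest to the right at 1.03 and Pfkfb3 farthest to the left at -1.08.

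Taken over all 30 tested members, the median log2 change was 0.05 in DSS_ICB_Fp against DSS_ICB mice, -0.04 in DSS_ICB against DSS mice and 0.00 in DSS_ICB_Fp against DSS mice. For all tested genes the medians were -0.04, 0.02 and -0.01 in those comparisons. The signs were mixed, with 19 of 30 members above 0 in the first, 14 of 30 in the second and 15 of 30 in the third. By role, the median log2 change in DSS_ICB_Fp against DSS_ICB mice was 0.26 for upper glycolysis, 0.03 for lower glycolysis, 0.20 for the lactate and pyruvate genes and -0.33 for the hypoxia genes. In DSS_ICB against DSS mice the medians were -0.16, -0.06, -0.23 and 0.33 in the same order of roles. With DSS_ICB 3 and 5 left out, the medians of DSS_ICB_Fp against DSS_ICB mice were 0.20, -0.02, 0.19 and -0.12, and those of DSS_ICB against DSS mice -0.07, -0.04, -0.15 and 0.01. The hypoxia median of the second comparison was thus close to 0 without these mice.

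The spread among mice differed between the groups by description. The median coefficient of variation of the members was 20.4% in DSS_ICB_Fp mice, 35.3% in DSS_ICB mice and 17.9% in DSS mice, and DSS_ICB mice had the highest of the 3 for 22 of 31 members. With DSS_ICB 3 and 5 left out, the median in DSS_ICB mice was 14.5%, and DSS_ICB mice had the highest for 6 of 31 members. DSS_ICB 3 was the lowest of all 15 mice for 18 members and the highest for 4. DSS_ICB 5 was the highest for 9 members and the lowest for 0. So in DSS_ICB 3 most glycolytic enzymes were low and Pfkm, Eno2 and Ldhb high, and in DSS_ICB 5 Slc2a1, Hk2, Hif1a, Bnip3 and Egln3 were high.

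Markers of other cell types moved with these mice. The sum of the neutrophil markers without Ly6g, which made 67.1% to 94.6% of the 12-marker sum in DSS_ICB_Fp and DSS mice and was left out after its values were seen, was 7.18 to 39.1 FPKM in DSS_ICB_Fp mice, 141 to 2112 FPKM in DSS_ICB mice and 25.3 to 64.7 FPKM in DSS mice. With Ly6g, the 12 markers summed to 117 to 226 FPKM, 345 to 2199 FPKM and 123 to 254 FPKM in the same order. Ly6g was at 87.2 to 502 FPKM in every mouse, also where the other markers were near 0, and how reads shared with related Ly6 genes were assigned is not given in the sources used here. It went against the other markers in DSS_ICB 3, which had the lowest Ly6g of all mice (87.2 FPKM), while DSS_ICB 5 had the highest (502 FPKM). On the sum without Ly6g, DSS_ICB 3, at 2112 FPKM, and DSS_ICB 5, at 918 FPKM, had the most. Of 12 neutrophil markers, 11, all but Ly6g, were highest among DSS_ICB mice in DSS_ICB 3. S100a8, a defining neutrophil gene, was at 593 and 218 FPKM in those 2 mice and at 0.00 to 64.5 FPKM in the other 13. The part of neutrophil RNA in the values of Slc2a3, Hk3 and Pfkfb3 in these 2 mice was not tested. Over the other 13 mice, Pfkfb3 and the 12-marker sum gave r = 0.570 (permutation p = 0.0426, adjusted p = 0.0959 over 9 relations) and rho = 0.659 (permutation p = 0.0171, adjusted p = 0.0385), and r was 0.587 over the 11 mice nearest the median sum. Without Ly6g, r was 0.538 (permutation p = 0.0600, adjusted p = 0.108) and rho 0.582 (permutation p = 0.0405, adjusted p = 0.0729). For Slc2a3 and Hk3, with or without Ly6g, r ran from 0.124 to 0.422 and rho from 0.198 to 0.401, with adjusted permutation p from 0.228 to 0.681, and r of Slc2a3 with the 12-marker sum was -0.103 over 11 mice. The DSS_ICB mice lie above all others on the sum without Ly6g, so these pooled values do not separate the sum from the groups.

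DSS_ICB 3 also had the highest value of all 8 smooth muscle markers and of all 7 markers of enteric neurons and glia among DSS_ICB mice. Among the same mice, DSS_ICB 5 had the highest of 7 of 8 macrophage markers and of all 5 erythroid markers. The 6 skeletal muscle markers summed to 7.78 to 22.6 FPKM in DSS_ICB_Fp mice, 9.39 to 56.8 FPKM in DSS_ICB mice and 7.07 to 22.4 FPKM in DSS mice. The high mice were DSS_ICB 3, with Ckm at 37.2 FPKM, and DSS_ICB 5, with Acta1 at 36.7 FPKM, while Myh4 was under 1 FPKM in every library. The 6 markers did not move together. Among DSS_ICB mice, 2 of them were highest in DSS_ICB 3 and 2 in DSS_ICB 5. Mylpf in DSS_ICB 3 was the lowest of all mice, at 0.371 FPKM. Ckm in DSS_ICB 5, at 10.4 FPKM, lay inside the range of the other mice. The 8 endothelial markers summed to 28.9 to 46.7 FPKM in DSS_ICB_Fp mice, 49.1 to 116 FPKM in DSS_ICB mice and 25.4 to 57.2 FPKM in DSS mice, with no overlap between DSS_ICB_Fp and DSS_ICB mice and the highest sums in DSS_ICB 3 and 5. The part of these cell types in the members' values was not tested. Outside these 2 mice, Ldhb still went with the smooth muscle sum. Over the other 13 mice, Pearson's r between log2(Ldhb FPKM + 1) and the log2 sum of 8 smooth muscle markers was 0.937 and Spearman's rho 0.945, each with a permutation p of 2e-05, the smallest that 100000 permutations can give, and an adjusted p of 0.00018 over 9 relations. Leaving out the 2 mice farthest from the median sum gave r = 0.907 over 11 mice. For Eno2, r was 0.788 and rho 0.852 (permutation p = 0.00032 and 0.00034, adjusted p = 0.00144 and 0.00153), and r was 0.862 over 11 mice. For Pfkm, r was 0.667 and rho 0.736 (permutation p = 0.0142 and 0.00598, adjusted p = 0.0425 and 0.0179), and r was 0.519 over 11 mice. All 9 relations, those with neutrophil markers included, were chosen after the values were seen and pool mice of all groups. The adjustment covers the 9 relations and not the choice of members and marker lists. The permutations moved mice across groups. The p-values therefore describe these pairs and are no test of the link. Both measures share a library's scaling. Of the 13 mice, DSS_ICB_Fp 2 and DSS 3 had the 2 highest smooth muscle sums, 4670 and 5458 FPKM. They also had the 2 highest sums of enteric neuron and glia markers, 36.5 and 36.1 FPKM. DSS_ICB 2 was the lowest of the 13 on both sums. The relation of Ldhb, Eno2 and Pfkm to the neuron and glia sum was not tested. The relations above are thus not shown to be particular to smooth muscle.

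**Figure D5:**
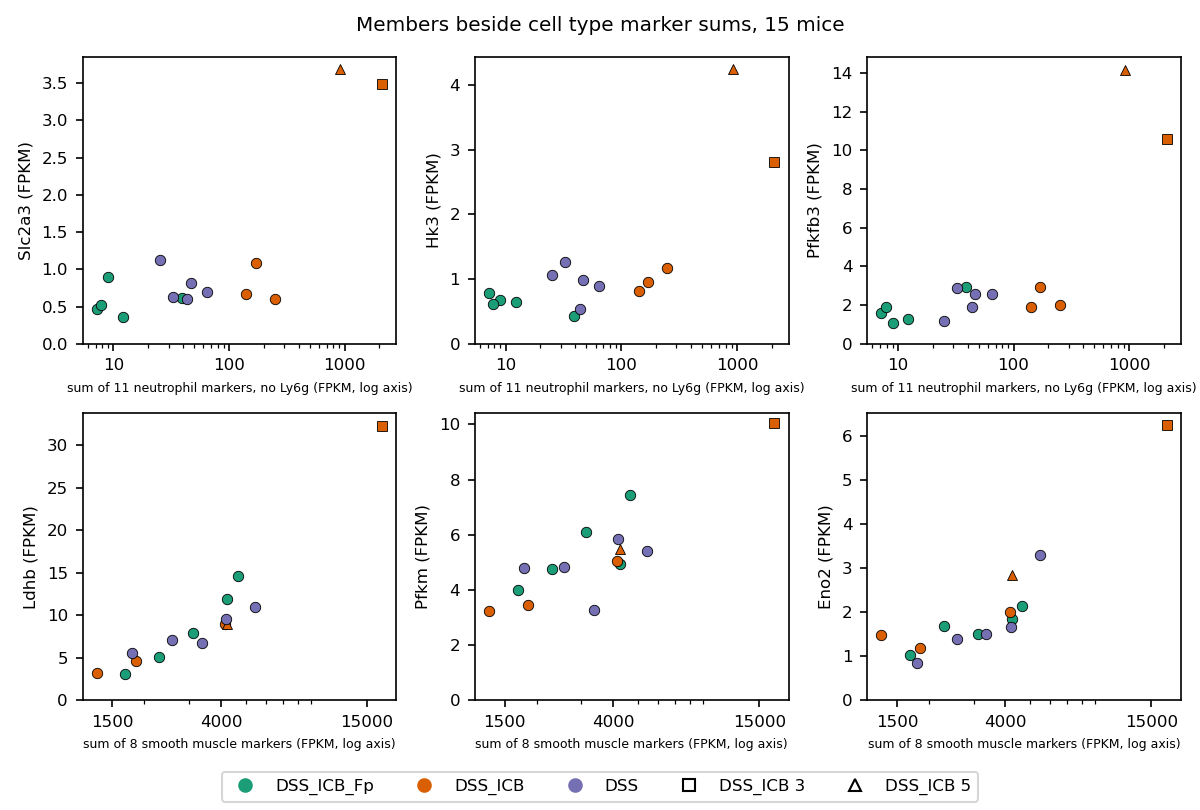
Members in FPKM (linear axes) against summed cell type markers in FPKM (log axes), 15 mice coloured by group; squares are DSS_ICB 3 and triangles DSS_ICB 5. Slc2a3, Hk3 and Pfkfb3 are high in the 2 mice with the most neutrophil marker RNA (Ly6g left out), and Ldhb, Pfkm and Eno2 climb with the smooth muscle sum.

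Genes of the neighbouring pathways gave 0 passes in every comparison, though some passed in DSS_ICB_Fp against DSS_ICB mice with 1 mouse left out or with quality weights. Of 22 other genes of glycolysis and lactate transport, 13 were tested, with a median log2 change of 0.11 in DSS_ICB_Fp against DSS_ICB mice and -0.11 in DSS_ICB against DSS mice. Both medians turned sign, to -0.03 and 0.15, without DSS_ICB 3 and 5. The pair of lactate carriers had opposite signs. Slc16a1, the butyrate and lactate carrier MCT1 of colonocytes, averaged 82.0 FPKM in DSS_ICB_Fp mice, 42.2 FPKM in DSS_ICB mice and 67.0 FPKM in DSS mice. Its log2 change was 1.04 ± 0.30 in DSS_ICB_Fp against DSS_ICB mice (adjusted p = 0.101 in limma) and -0.77 ± 0.30 in DSS_ICB against DSS mice (adjusted p = 0.430 in limma), or 0.56 and -0.30 without DSS_ICB 3 and 5. Slc16a3, the lactate exporter MCT4 of glycolytic cells, was at 2.59, 1.41, 1.08, 2.90 and 2.43 FPKM in DSS_ICB_Fp mice, 4.42, 3.23, 10.1, 3.97 and 13.5 FPKM in DSS_ICB mice and 2.59, 1.64, 1.58, 2.88 and 3.13 FPKM in DSS mice. All DSS_ICB mice were above all others, DSS_ICB 3 and 5 by most, with a log2 change of -1.25 ± 0.31 in DSS_ICB_Fp against DSS_ICB mice (adjusted p = 0.0844 in limma) and 1.11 ± 0.31 in DSS_ICB against DSS mice (adjusted p = 0.381 in limma). Leaving out DSS_ICB 3 and 5 gave -0.70 and 0.55. Of all tested genes, 2.46% were lower without overlap in the first comparison and 1.21% higher without overlap in the second. Adpgk, an ADP-dependent glucokinase, had a log2 change of -0.37 ± 0.14 in DSS_ICB_Fp against DSS_ICB mice (adjusted p = 0.149 in limma), and Ldhd, a D-lactate dehydrogenase, one of 0.40 ± 0.17 in DSS_ICB against DSS mice (adjusted p = 0.430 in limma).

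Of 34 other hypoxia response genes, 32 were tested. At an unadjusted p under 0.05, 9 were lower and 3 higher in DSS_ICB_Fp than in DSS_ICB mice, beside 12.4% and 9.34% of all genes. In the second comparison, 7 were higher and 1 lower in DSS_ICB than in DSS mice, beside 7.08% and 4.22% of all genes. The median log2 changes were -0.09 and 0.07, and 0.00 and -0.01 without DSS_ICB 3 and 5. Lox, a collagen cross-linking enzyme, was at 0.932, 2.45, 1.17, 2.29 and 1.78 FPKM in DSS_ICB_Fp mice, 5.62, 4.92, 18.4, 4.04 and 7.2 FPKM in DSS_ICB mice and 3.43, 1.40, 2.41, 2.51 and 1.09 FPKM in DSS mice. No DSS_ICB mouse overlapped the other groups. Of all tested genes, 2.46% were lower without overlap in DSS_ICB_Fp than in DSS_ICB mice, and 1.21% higher in DSS_ICB than in DSS mice. The log2 change of Lox in DSS_ICB_Fp against DSS_ICB mice was -1.58 ± 0.32 (adjusted p = 0.0610 in limma), and -1.13 without DSS_ICB 3 and 5. Hmox1, the heme-degrading enzyme of macrophages, averaged 4.14 FPKM in DSS_ICB_Fp mice, 14.7 FPKM in DSS_ICB mice and 6.41 FPKM in DSS mice, with a log2 change of -1.49 ± 0.32 (adjusted p = 0.0706 in limma) between DSS_ICB_Fp and DSS_ICB mice, and -0.93 without DSS_ICB 3 and 5. Hilpda, a lipid droplet protein, had a log2 change of 0.90 ± 0.28 in DSS_ICB against DSS mice (adjusted p = 0.418 in limma), and 0.51 without them. Fibroblast markers summed to 224 to 426 FPKM in DSS_ICB_Fp mice, 388 to 724 FPKM in DSS_ICB mice and 285 to 416 FPKM in DSS mice, and the part of fibroblast and endothelial RNA in these values was not tested.

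Of 16 genes of pyruvate oxidation and gluconeogenesis, 14 were tested, with a median log2 change of 0.29 in DSS_ICB_Fp against DSS_ICB mice and -0.27 in DSS_ICB against DSS mice, or 0.14 and -0.07 without DSS_ICB 3 and 5. At an unadjusted p under 0.05, 5 were higher in DSS_ICB_Fp than in DSS_ICB mice and 0 lower, beside 9.34% and 12.4% of all genes. Pck1, the entry enzyme of gluconeogenesis, was at 18.6, 24.8, 17.1, 5.13 and 41.0 FPKM in DSS_ICB_Fp mice, 11.5, 9.07, 0.236, 4.93 and 0.501 FPKM in DSS_ICB mice and 5.61, 7.87, 10.8, 16.2 and 9.49 FPKM in DSS mice. DSS_ICB 3 and 5 were near 0 and the groups overlapped through DSS_ICB_Fp 4. Its log2 change was 2.15 ± 0.64 in DSS_ICB_Fp against DSS_ICB mice (adjusted p = 0.104 in limma), and 1.05 without DSS_ICB 3 and 5 (adjusted p = 0.292 in limma). Pdk2, a kinase that holds back pyruvate oxidation, averaged 14.4 FPKM in DSS_ICB_Fp mice, 7.2 FPKM in DSS_ICB mice and 9.75 FPKM in DSS mice, with a log2 change of 0.92 ± 0.27 between DSS_ICB_Fp and DSS_ICB mice (adjusted p = 0.106 in limma), and 0.66 without DSS_ICB 3 and 5. Mpc1, a subunit of the mitochondrial pyruvate carrier, averaged 18.1, 13.4 and 16.5 FPKM in the same order of groups (log2 change 0.42 ± 0.13, adjusted p = 0.110 in limma, and 0.40 without DSS_ICB 3 and 5).

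All 7 genes of the pentose phosphate pathway, which makes NADPH from glucose 6-phosphate, were tested, and 0 had an unadjusted p under 0.05 in any comparison. G6pdx, its first enzyme, averaged 31.1 FPKM in DSS_ICB_Fp mice, 25.7 FPKM in DSS_ICB mice and 34.1 FPKM in DSS mice, with log2 changes of 0.38 ± 0.31 in DSS_ICB_Fp against DSS_ICB mice (adjusted p = 0.499 in limma) and -0.49 ± 0.31 in DSS_ICB against DSS mice (adjusted p = 0.518 in limma). They were -0.02 and -0.09 without DSS_ICB 3 and 5.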

How the data were processed

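RNA sequencing of mouse colon tissue, 1 library per mouse and 5 mice per group, was analysed from the deposited values. Per the submitters' processing notes, FastQC, STAR 2.5, the mm10 build, Cuffnorm and DESeq were used. The authors deposited FPKM, that is, fragments scaled to transcript length and to the mapped fragments of a library, a unit read from Cuffnorm and the values; any further scaling between libraries is not given in the sources used here. Of 55335 Ensembl IDs, 55154 matched a GENCODE M21 symbol (GRCm38). Aldoa has a second ID with low values, which was not used. FPKM steps did not return whole reads (22.4% to 28.5% of low values within 0.05 of a step), so no count test was run; the estimated depth is approximate.

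Genes of at least 1 FPKM in at least 5 libraries (14385) were fitted as log2(FPKM + 1), which understates changes of low genes, with limma 3.58.1 in R 4.3.3 (trended, robust, 1 mean per group, all 15 libraries, two-sided, Benjamini-Hochberg). The fit was tested on simulated data. Nothing in the labels links mice of different groups; whether mice shared cages or litters is not given, so p-values measure the spread between these mice. Correlations used 100000 permutations in Python 3.11.15. The members, lists and comparisons were chosen with earlier results of these data known. A fitted change with its standard error is printed only for members whose change exceeds it; genes of other lists are named from the up to 3 of smallest p in each list and comparison. Other pseudocounts, filters, scalings, quality weights and left-out libraries were tried. Promoters are from RefSeq.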

Additional observations from a re-analysis of the deposited data

Results flagged for a closer look

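Of 93 sets of 5 mice, 1 for each member and group, 8 held a mouse whose gap to the next exceeded Dixon's 95% critical value, and chance marks about 1 in 20. Of the 8, 4 were DSS_ICB 3. That mouse had Pgk1 at 72.8 FPKM (other DSS_ICB mice 188 to 238), Ldha at 105.0 FPKM (229 to 274), Pfkfb4 at 1.28 FPKM (3.11 to 4.02) and Car9 at 4.15 FPKM (21.1 to 36.3). DSS_ICB 5 had Egln3 at 63.2 FPKM (30.6 to 36.4 in the other DSS_ICB mice). In DSS mice, DSS 2 had Hk1 at 14.2 FPKM (22.2 to 25.4 in the others), and DSS 5 had Hk2 at 38.4 FPKM (22.4 to 25.8) and Pfkp at 17.4 FPKM (12.8 to 13.9).

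Of 39 sets of isozyme shares and sums, 6 held such a mouse. DSS_ICB 3 had an Hk3 share of 11.3%, a Pfkm share of 29.2%, an Eno2 share of 7.12%, an Ldhb share of 23.5% and a Slc2a3 share (of Slc2a1 and Slc2a3) of 16.7%. DSS_ICB_Fp 2 had a Slc2a3 share of 3.17%, against 1.31% to 1.80% in the other DSS_ICB_Fp mice. DSS_ICB 3 also had the marker sums of smooth muscle and neutrophils named in the report, and their part in these shares was not tested.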

How the results depend on the processing

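No paired analysis was possible because the mice carry unique numbers and their replicate numbers were given in order. Members passing stayed at 0 in all settings for DSS_ICB against DSS and DSS_ICB_Fp against DSS mice. In DSS_ICB_Fp against DSS_ICB mice 1 member, Aldoc, passed with quality weights, and 0 to 1 passed with 1 mouse left out. The count of all genes passing moved widely. In DSS_ICB_Fp against DSS_ICB mice it was 19, and 42 with a pseudocount of 0.1, 5 with 10, 7 with no filter, 11 with a filter at 5 FPKM, 0 with the compared groups only, 964 with quality weights, and 5 to 598 with 1 mouse left out. In DSS_ICB against DSS mice it was 3, and 0 with a pseudocount of 0.1, 1 with a pseudocount of 10, no filter, a filter at 5 FPKM or the compared groups only, and 0 to 7 with 1 mouse left out. The cause of these moves was not tested.

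Of 1734 single-gene alternatives, 1693 kept direction and side of the threshold, 29 newly passed and 12 turned direction. Without DSS_ICB 3 and 5, the log2 changes of DSS_ICB against DSS mice became -0.0576 for Eno2, 0.0190 for Tpi1, 0.00238 for Ldha, -0.0568 for Bnip3 and 0.0481 for Pgd. Those of DSS_ICB_Fp against DSS_ICB mice became 0.0468 for Eno2, -0.0601 for Tpi1, 0.0617 for Bnip3, -0.0913 for Tkt and -0.0213 for G6pdx. With 1 mouse left out, Ldha in DSS_ICB against DSS mice ran from -0.335 to 0.0078, the highest without DSS_ICB 3. With quality weights Tpi1 in DSS_ICB_Fp against DSS_ICB mice became -0.0198. Low members such as Hk3 and Slc2a3 are limited by depth and by the added 1 FPKM.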

Other observations

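Several genes of neighbouring pathways passed in DSS_ICB_Fp against DSS_ICB mice under other settings. Hmox1, Lox and Loxl2, a relative of Lox, passed with quality weights and without DSS_ICB 1, DSS_ICB 2, DSS_ICB 4 or DSS_ICB_Fp 4. With quality weights 12 such genes passed, and among them Slc16a1, Slc16a3, Pck1 and Pdk2 also passed without DSS_ICB_Fp 4, where 9 passed. The 4 lists held 13, 32, 14 and 7 tested genes. Calls rose among all 14385 tested genes under these settings. From 19 in the main fit they went to 964 with quality weights and 449 without DSS_ICB_Fp 4. Without DSS_ICB 1, DSS_ICB 2 or DSS_ICB 4 they were 598, 153 and 75. Passes were thus not limited to these pathways. Whether these lists held more of them than their share of all tested genes was not tested. Loxl2 averaged 10.5 FPKM in DSS_ICB_Fp mice, 24.0 FPKM in DSS_ICB mice and 12.5 FPKM in DSS mice.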
